A study of Homo sapiens with 8 samples.

Results

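The genes described here are cytokines, receptor subunits and the feedback inhibitor of the interleukin 6 (IL6) family in human skin fibroblasts. They were chosen by their symbols from the deposited expression table and make up 9 of its 24598 genes: the cytokines IL6, IL11, LIF and CLCF1, the receptor subunits IL6ST, LIFR, OSMR and IL11RA, and the inhibitor SOCS3. All 9 passed the filter on low values and were tested. RNA came from CCD-1077Sk cells, a fibroblast line from normal skin, grown in serum-containing medium and collected after 6 h of treatment. The 8 libraries fall into 4 groups of 2. The control group received the vehicles of both agents (BSA, citric acid and DMSO), and the second group received transforming growth factor beta 1 (TGFB1) with DMSO. The third group received 500 nM celastrol, a plant triterpenoid, with BSA and citric acid, and the fourth received TGFB1 together with 500 nM celastrol. The sources used here do not give the dose of TGFB1. All cells were of 1 line, and the labels leave unsaid whether a group's libraries are separate cultures. The p-values below therefore reflect only the spread between libraries, and that spread may be technical. In bulk RNA, fewer cells of a kind and less RNA per cell cannot be told apart.

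Cytokines of the IL6 family act through receptor complexes that share the subunit gp130, encoded by IL6ST. IL6 and IL11 first bind their own receptors (IL6R and IL11RA), LIF pairs gp130 with LIFR, oncostatin M pairs it with OSMR or LIFR, and CLCF1 signals through CNTFR, gp130 and LIFR. The complexes activate JAK kinases and the transcription factor STAT3. SOCS3, itself a STAT3 target, binds gp130 and dampens the signal.

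Values are normalized reads, that is, estimated reads of a gene divided by 1 size factor per library. They were compared as log2(value + 1), a scale that understates the difference of a low gene. A gene is called changed where its adjusted p (Benjamini-Hochberg over all 22866 genes tested, from a limma fit to all 8 libraries) is under 0.05. Libraries held 20716713 to 42518362 estimated reads. All 8 fibroblast markers were in the table and summed to 355456 to 640467 normalized reads in a library. Endothelial markers summed to 52.7 to 98.9 in the 4 libraries without celastrol and to 354 to 465 in the 4 with it, with PECAM1 at 0 in both TGFB1 libraries. Immune markers summed to 11.3 to 22.2 without celastrol and to 63.0 to 92.4 with it. Melanocyte markers, most of their sum being MITF, were at 1034 to 1074 in control, 222 to 236 with TGFB1 and 1269.99 to 1365 with celastrol. These sums move with celastrol beside each celastrol result below, and their part in those results was not tested.

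TGFB1 raised all 4 cytokines, the receptor subunit OSMR and SOCS3, and lowered none of the 9 genes. Among all genes tested, 23.5% were called in this comparison, 12.8% as higher and 10.6% as lower. LIF and IL11 rose most, by log2 differences of 5.29 and 4.44. The median log2 difference was 0.91 over the 9 genes and 0 over all genes tested.

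LIF lies on chromosome 22 (30240453 to 30246760, minus strand, hg38, as deposited) and encodes a cytokine that signals through LIFR and gp130. Its control libraries were at 266 and 259.7 normalized reads, and its TGFB1 libraries at 9226 and 11612. The celastrol libraries were at 599.8 and 625, and those with both agents at 717 and 709.8. Both TGFB1 libraries lay far above the other 6, and every library with celastrol lay above both controls. On group means LIF was 39.6 times as high with TGFB1 as in control (log2 difference 5.29, SE 0.10, limma adjusted p = 1.43e-07), and among all genes tested only 3 had a higher log2 difference. LIF shares 92 exon bases with LIF-AS1 and 175 with AC004264.1, both on the opposite strand. The sources used here do not say whether the counting used strand, so reads of such overlapping genes cannot be told apart.

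IL11 lies on chromosome 19 (55364382 to 55370464, minus strand) and encodes a cytokine that binds IL11RA and gp130. It was at 334 and 302 normalized reads in the control libraries and at 6503 and 7363 with TGFB1. With celastrol it was at 672 and 735, and with both agents at 995 and 893. The groups did not overlap, with TGFB1 alone highest and control lowest. The mean with TGFB1 was 21.8 times that of control (log2 difference 4.44, SE 0.09, limma adjusted p = 1.43e-07). No exon of another annotated gene overlaps IL11.

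IL6 lies on chromosome 7 (22725884 to 22732003, plus strand) and encodes the cytokine that names the family. It was the lowest of the 4 cytokines, with 57 to 273 estimated reads in a library. Control libraries were at 71.3 and 79.8 normalized reads, TGFB1 libraries at 295 and 336, celastrol libraries at 146 and 165, and libraries with both agents at 132 and 135. The TGFB1 libraries were again highest and the controls lowest, and the libraries with both agents lay below those with celastrol alone. The TGFB1 mean was 4.18 times that of control (log2 difference 2.05, SE 0.15, limma adjusted p = 3.72e-05). IL6 shares 46 exon bases with STEAP1B, which was at 65.8 to 178 normalized reads, and 428 with AC073072.1, both on the opposite strand.

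CLCF1 lies on chromosome 11 (67364168 to 67374178, minus strand) and encodes a ligand of the CNTFR complex. Control libraries were at 214 and 235 normalized reads and TGFB1 libraries at 647 and 829.6. Celastrol libraries were at 826 and 814, and libraries with both agents at 826 and 746. All 6 treated libraries lay well above the controls, and the 3 treated groups lay close together. The TGFB1 mean was 3.29 times that of control (log2 difference 1.71, SE 0.12, limma adjusted p = 3.50e-05). CLCF1 shares 61 exon bases with AP003419.1 on the same strand, which was at 2.49 to 63.2 normalized reads.

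**Figure D1:**
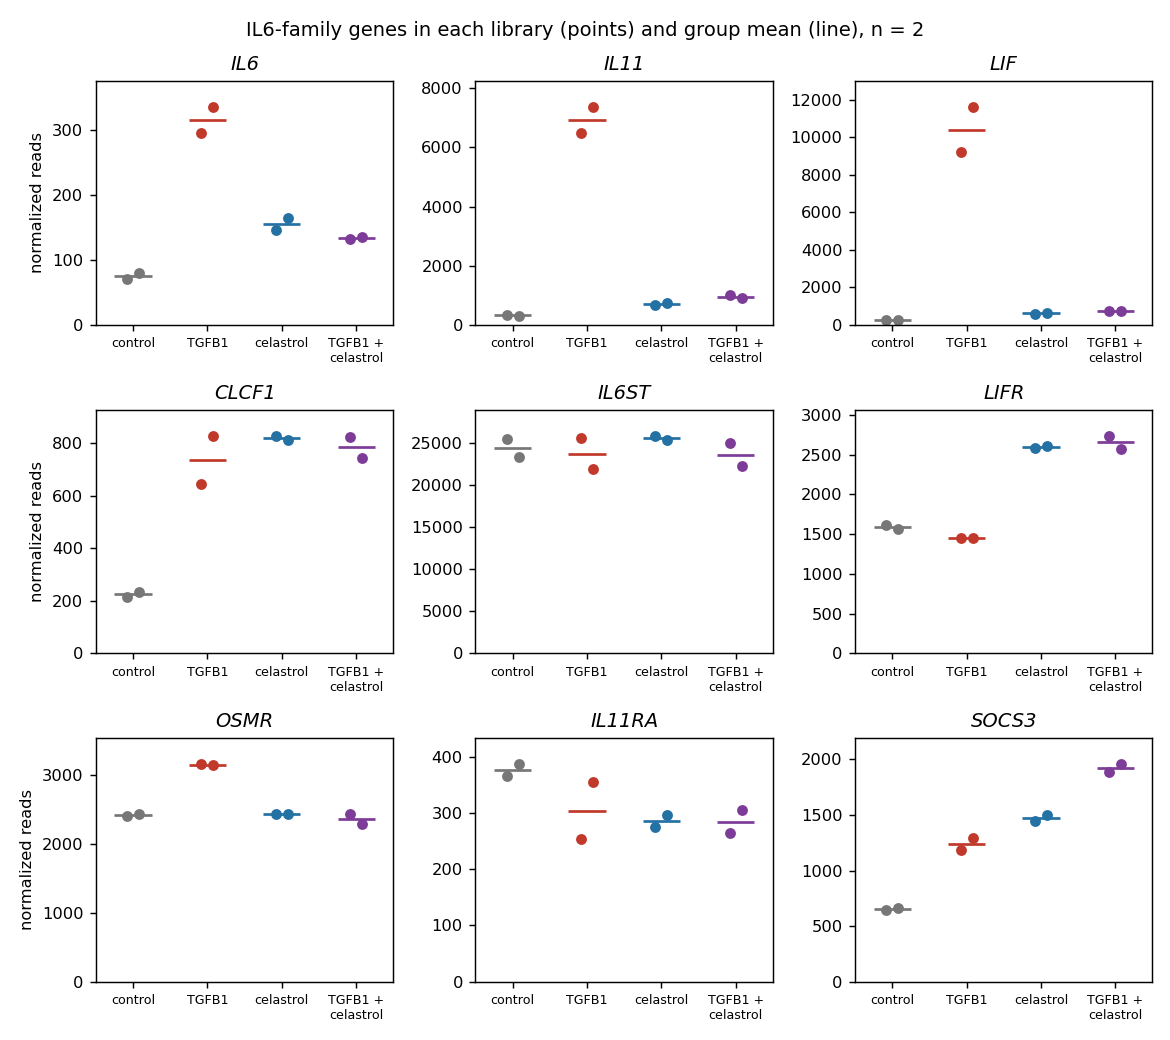
Normalized reads (linear axes from 0, 1 scale per gene) of the 9 genes in each library (points) with the group mean (line), n = 2 libraries a group. LIF and IL11 stand far higher in the 2 TGFB1 libraries than in the other 6, CLCF1 is high in all 3 treated groups, LIFR in both celastrol groups, and SOCS3 is highest with both agents.

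Because TGFB1 raised these cytokines together, the sequence before their start sites is shown for those that have an entry in the RefSeq promoter table (GRCh38.p14). That table matched 7 of the 9 genes; LIF and CLCF1 had no entry. For IL11 the 250 bases before the start site (chr19:55370464-55370713, minus strand) hold 1 AP-1 motif (TGANTCA) at -96 to -90 and 1 SMAD motif (CAGAC, here on the other strand) at -125 to -121, both in capitals. For IL6 the stretch from -250 to -54 (chr7:22726950-22727146, plus strand) holds a short CRE motif (TGACG) on each strand, at -215 to -211 and -162 to -158, and an NF-kB motif at -73 to -64, in capitals. The bases nearest the IL6 start site lie in annotated exons of other transcripts and are not printed.
IL11: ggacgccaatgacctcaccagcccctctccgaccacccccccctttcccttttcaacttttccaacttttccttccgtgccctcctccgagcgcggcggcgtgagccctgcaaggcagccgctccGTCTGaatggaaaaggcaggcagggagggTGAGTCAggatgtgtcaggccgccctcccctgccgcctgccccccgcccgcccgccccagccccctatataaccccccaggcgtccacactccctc
IL6: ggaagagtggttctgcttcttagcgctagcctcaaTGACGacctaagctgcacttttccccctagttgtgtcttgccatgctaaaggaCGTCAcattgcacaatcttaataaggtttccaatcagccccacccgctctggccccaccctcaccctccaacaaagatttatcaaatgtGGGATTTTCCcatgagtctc
Among 35116 RefSeq promoters searched over the same 250 bases on both strands, 6.57% hold the AP-1 motif, 38.0% the SMAD motif, 21.2% the short CRE motif and 5.21% the NF-kB motif. The full CRE (TGACGTCA), found in 1.65% of them, and the heat shock element (GAANNTTC), found in 5.78%, have no match in any of the 7 genes' windows. The STAT motif TTCNNNGAA, found in 6.57%, has a match in 2 of the LIFR entries. The SMAD motif is not particular to IL11: IL6 has a match at -11 to -7, in the part not printed. LIFR, IL11RA and SOCS3 have SMAD matches too, and LIFR and IL11RA were not called with TGFB1 in the reported fit. The LIFR window with the SMAD matches, which also holds a STAT match, lies wholly in annotated exons. The SOCS3 windows lie before start sites at 78359667 and 78360925, while the deposited gene ends at 78360078. The bases just before that end were not searched for any motif. A match is a run of letters and no evidence of binding.

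IL6ST, the gene of gp130 (chromosome 5, 55935095 to 55995023, minus strand), had the most reads of the 9 genes and was called in no comparison. Its controls were at 25431 and 23255 normalized reads, TGFB1 libraries at 25525 and 21861, celastrol libraries at 25836 and 25372, and libraries with both agents at 25008 and 22173. The groups overlapped in all comparisons other than celastrol with and without TGFB1. With TGFB1 the log2 difference from control was -0.042 (95% interval -0.25 to 0.17, limma adjusted p = 0.808). IL6ST values are fractional in all 8 libraries, and the gene shares 797 exon bases with AC008914.1 on the opposite strand.

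OSMR (chromosome 5, 38845858 to 38945597, plus strand), the oncostatin M receptor subunit, was at 2409 and 2438 normalized reads in control and at 3157 and 3144 with TGFB1. With celastrol it was at 2437 and 2433, and with both agents at 2428 and 2290.2. Only the TGFB1 libraries stood apart, by a ratio of means of 1.30 (log2 difference 0.38, SE 0.05, limma adjusted p = 0.00147). With all libraries set to a common total, which puts the median of all genes at -0.21 in this comparison, the difference was 0.15 (limma adjusted p = 0.0668), and with median centring, which puts it at 0.12, it was 0.50 (adjusted p = 0.000328). OSMR shares 229 exon bases with RICTOR on the opposite strand, which was at 3773 to 4599 normalized reads.

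LIFR (chromosome 5, 38474668 to 38608355, minus strand), the LIF receptor subunit, was at 1621 and 1559 normalized reads in control and at 1446 and 1456 with TGFB1. With celastrol it was at 2582 and 2614, and with both agents at 2741 and 2577. The celastrol libraries, with or without TGFB1, lay above the other 4. TGFB1 libraries lay below the controls without overlap, but the log2 difference of -0.13 was not called (95% interval -0.26 to 0.00049, limma adjusted p = 0.142), whereas with a common total it was (-0.36, adjusted p = 0.00209). LIFR shares 629 exon bases with LIFR-AS1 on the opposite strand, which was at 7.06 to 70.3 normalized reads.

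IL11RA (chromosome 9, 34650702 to 34661903, plus strand), the IL11 receptor, had the fewest reads of the 4 receptor subunits among the 9 genes. It was at 365 and 387 normalized reads in control, while the TGFB1 libraries were at 254 and 354. Celastrol libraries were at 276 and 296, and those with both agents at 264 and 305. All 6 treated libraries lay below the controls, but no difference was called: -0.33 with TGFB1 (SE 0.16, limma adjusted p = 0.188) and -0.40 with celastrol (SE 0.16, adjusted p = 0.0653). The TGFB1 difference passed without TGFB1 replicate 2 (-0.57, adjusted p = 0.0252) and with a common total (-0.55, adjusted p = 0.0307). The celastrol difference passed in 6 alternative settings, among them the fits without TGFB1 replicate 1 or 2 (adjusted p = 0.0164 and 0.0173). IL11RA shares 334 exon bases with GALT (166 to 314 normalized reads) and 410 with AL162231.3 on the same strand, and 13 with CCL27 on the opposite strand. Its values were whole reads (within 0.02) in only 1 library.

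SOCS3 (chromosome 17, 78356778 to 78360078, minus strand) was at 647 and 666 normalized reads in control and at 1186 and 1290.5 with TGFB1. With celastrol it was at 1448 and 1504, and with both agents at 1883 and 1958. The 4 groups did not overlap and were ordered control, TGFB1, celastrol, both. The TGFB1 mean was 1.89 times that of control (log2 difference 0.91, SE 0.07, limma adjusted p = 4.07e-05).

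The next comparison set the libraries with both agents against those with TGFB1 alone, the question being what celastrol does to expression in TGFB1-treated cells. It shares the TGFB1 libraries with the comparison above, so the 2 sets of differences are not independent. LIF, IL11, IL6 and OSMR were lower with celastrol, LIFR and SOCS3 were higher, and CLCF1, IL6ST and IL11RA were not called. Celastrol was called for 63.4% of all genes here (37.5% higher, 25.9% lower), so the 6 of 9 called lie near the background. LIF was at 6.85% of its TGFB1 mean (log2 difference -3.86, SE 0.10, limma adjusted p = 9.56e-08), IL11 at 13.6% (-2.88, adjusted p = 1.96e-07) and IL6 at 42.5% (-1.23, adjusted p = 0.000126). OSMR was at 74.9% (-0.42, limma adjusted p = 0.000183). Its mean with both agents was 2359 ± 97.7 normalized reads, beside 2423 ± 20.4 in control (SD, n = 2).

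CLCF1, alone among the cytokines, was not called in this comparison. Its mean with both agents was 106% of that with TGFB1 (log2 difference 0.10, 95% interval -0.18 to 0.38, limma adjusted p = 0.501), and the libraries overlapped. LIFR was at 183% of its TGFB1 mean (0.87, limma adjusted p = 4.93e-06) and SOCS3 at 155% (0.63, adjusted p = 6.04e-05). For IL6ST the 95% interval of the difference was -0.21 to 0.21, and for IL11RA -0.45 to 0.29.

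In cells without TGFB1, celastrol raised the same 4 cytokines, LIFR and SOCS3, and lowered none of the 9 genes. The background was 55.1% of all genes called, 33.8% higher and 21.3% lower. CLCF1 rose most, to 3.66 times its control mean (820.1 ± 8.80 against 224 ± 14.6 normalized reads, SD, n = 2; log2 difference 1.87, limma adjusted p = 6.13e-06). LIF rose 2.33 times (1.22, adjusted p = 2.23e-05), IL11 2.21 times (1.14, adjusted p = 2.15e-05) and IL6 2.06 times (1.03, adjusted p = 0.000454). SOCS3 rose 2.25 times (1.17, limma adjusted p = 3.24e-06) and LIFR 1.63 times (0.71, adjusted p = 1.95e-05). OSMR was not called, with a log2 difference of 0.0071 (95% interval -0.12 to 0.13, limma adjusted p = 0.924), although centring all genes on their median lowered it to -0.16 (adjusted p = 0.0324). This comparison shares the control libraries with that of TGFB1 alone, and shares no library with that of celastrol added to TGFB1.

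**Figure D2:**
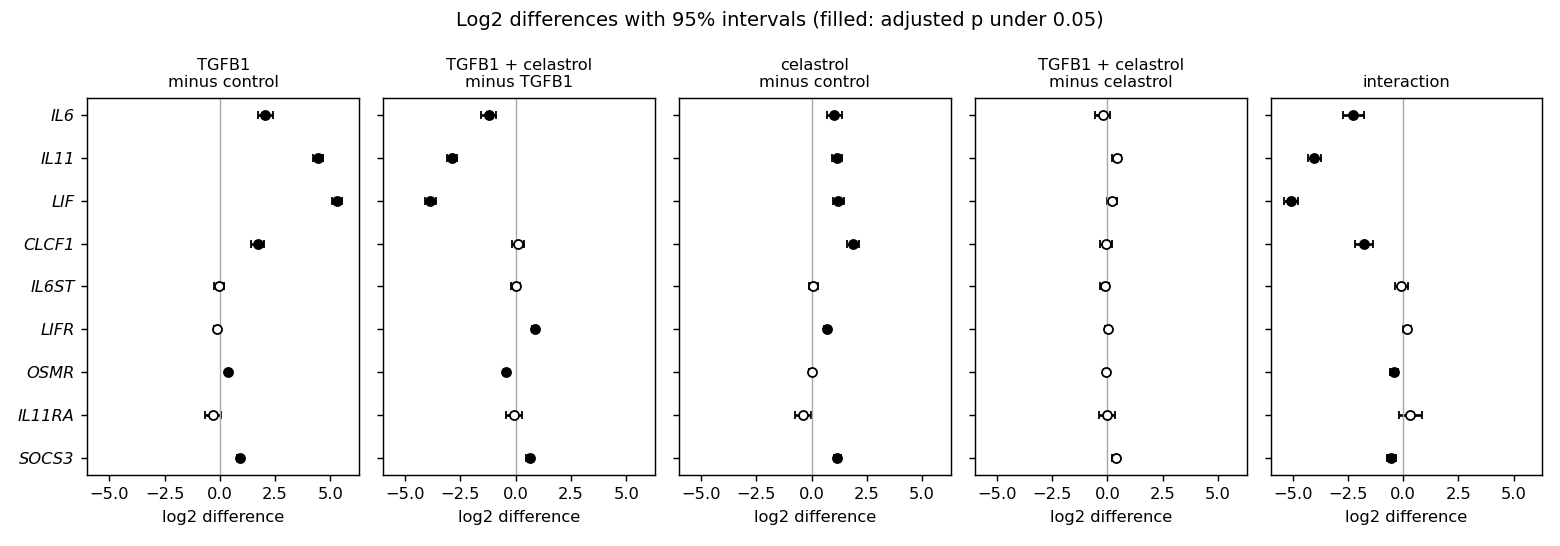
Log2 differences of the 9 genes (points) with 95% intervals (bars) from the fit to all 8 libraries, 1 panel per comparison; filled points have an adjusted p under 0.05. IL6, IL11 and LIF lie to the right of 0 for each agent alone and to the left when celastrol is added to TGFB1, and no point is filled for TGFB1 in the presence of celastrol.

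With celastrol present, none of the 9 genes was called for TGFB1 by limma. Of all genes tested, 0.00875% were called, 0.00437% as higher and 0.00437% as lower, that is 1 gene each way. IL11 was 0.42 higher on the log2 scale (95% interval 0.21 to 0.64, limma adjusted p = 1) and SOCS3 0.38 higher (95% interval 0.23 to 0.53, adjusted p = 0.636). The libraries did not overlap for IL11, SOCS3 and LIF (higher with TGFB1), nor for IL6, IL6ST and OSMR (lower). How many of all genes lack such overlap was not counted. LIF differed by 0.22 (95% interval -0.011 to 0.45), IL6 by -0.21 (-0.55 to 0.13) and CLCF1 by -0.063 (-0.34 to 0.22). For LIF the upper end of that interval is far below the 5.29 seen without celastrol. TGFB1 libraries without celastrol exceeded control by 10156 normalized reads of LIF and 6615 of IL11 on group means, and with celastrol the same differences were 101 and 240.2.

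The interaction is the log2 difference for celastrol in TGFB1-treated cells minus that in cells without TGFB1. It was negative for all 4 cytokines, OSMR and SOCS3, against a background of 11.3% of all genes called (4.36% positive, 6.89% negative). The values were -5.07 for LIF, -4.02 for IL11 (both limma adjusted p = 4.17e-06), -2.26 for IL6 (adjusted p = 0.000392) and -1.77 for CLCF1 (adjusted p = 0.000499). For SOCS3 it was -0.53 (limma adjusted p = 0.00908) and for OSMR -0.42 (adjusted p = 0.00934). With a common total both of these lost their call (adjusted p = 0.0712 and 0.144), as they did without a variance trend (adjusted p = 0.0649 and 0.0843). A negative value covers different patterns. LIF, IL11 and IL6 were lower with both agents than with TGFB1. CLCF1 was at 738 ± 129 normalized reads with TGFB1, 820.1 ± 8.80 with celastrol and 786 ± 56.3 with both (SD, n = 2). SOCS3 was higher with both agents than with either, but by less than the sum of the separate log2 differences. For IL6ST, LIFR and IL11RA the interaction was not called (-0.079, 0.16 and 0.32).

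Levels can be roughly compared between genes per length of exon (the union of annotated exons, GENCODE release 29). That union need not be the length of the transcripts in these cells, and the SDs below do not cover such an error. In control, IL6ST was at 2619.8 ± 166 normalized reads per kb (SD, n = 2), far above the others, and OSMR followed with 338 ± 2.85 and SOCS3 with 240.1 ± 5.13. LIFR at 134 ± 3.69, IL11 at 119 ± 8.37 and CLCF1 at 114 ± 7.40 were next, and IL11 and CLCF1 did not differ beyond their spread. IL11RA (88.1 ± 3.62), LIF (66.3 ± 1.19) and IL6 (36.5 ± 2.90) were lowest. With TGFB1, LIF (2625 ± 425) and IL11 (2596 ± 228) reached the level of IL6ST (2549.8 ± 279), and these 3 genes did not differ beyond their spread. With both agents LIF was at 179.8 ± 1.31 and IL11 at 353 ± 27.1, while SOCS3, at 702 ± 19.3, was the highest of the 9 after IL6ST.

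The 4 cytokines together came to 335 normalized reads per kb in control, 5747 with TGFB1, 908 with celastrol and 996 with both agents. Their makeup differed between groups. In control, IL11 made up 35.5% of that sum, CLCF1 33.8%, LIF 19.8% and IL6 10.9%. With TGFB1, LIF and IL11 made up 45.7% and 45.2%, CLCF1 6.50% and IL6 2.65%. With celastrol, CLCF1 held the largest share, 45.7% alone and 40.0% with TGFB1. These shares are descriptions of group means, with no test, and they rest on the same exon lengths.

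**Figure D3:**
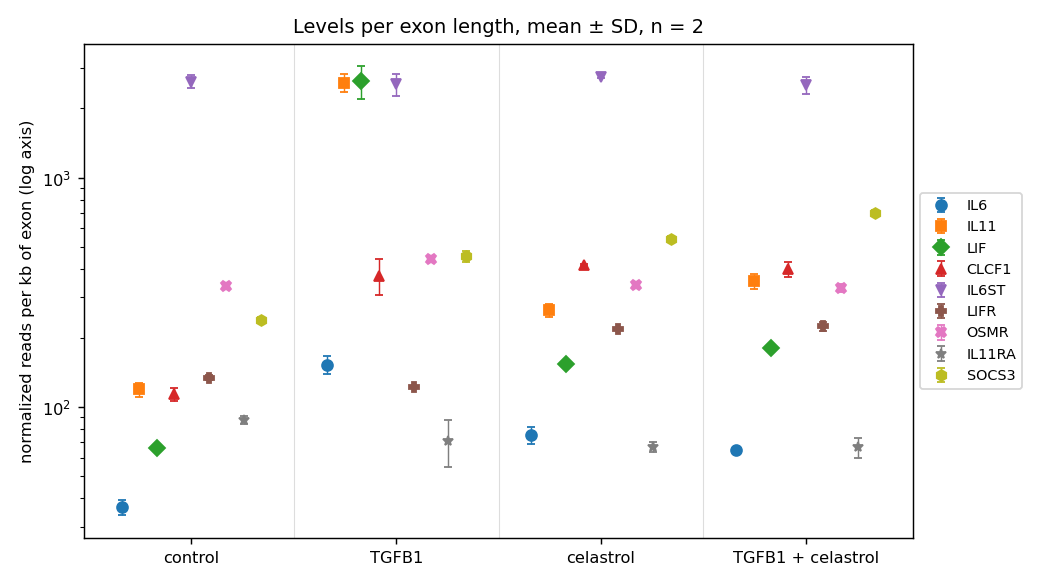
Normalized reads per kb of exon (log axis) of the 9 genes in each group, mean (points) and SD (bars), n = 2 libraries. LIF and IL11 sit below most receptor subunits in control and next to IL6ST with TGFB1, and SOCS3 lies second to IL6ST with both agents.

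The other genes of the pathway were taken as lists of 57 genes, of which 51 were tested. TGFB1 raised 20 and lowered 4 of them. With a common total the split was 11 and 13, and with median centring 23 and 4. All genes tested split into 2937 higher and 2427 lower in the same comparison, 1417 and 5399 with a common total, and 4778 and 1775 with median centring. When celastrol was added to TGFB1, 21 rose and 17 fell (26 and 14 with a common total, 15 and 23 with median centring), beside 8564 and 5933 of all genes (9809 and 4183, and 6956 and 9094). Celastrol alone raised 19 and lowered 9 (19 and 11, and 18 and 17), beside 7737 and 4868 of all genes (7286 and 6068, and 6751 and 7470). TGFB1 in the presence of celastrol changed 0 of the 51 by limma. The medians over the 51 genes were 0.10, 0.13 and 0.012 in the first 3 comparisons, beside 0, 0.12 and 0.083 over all genes. IL27, EBI3, IL31, CNTFR and SERPINA3 had no row in the expression table used here, so no level can be given for them.

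Among the other ligands, OSM, the gene of oncostatin M, was too low to be tested. It was at 0 in both controls and at 0 and 1.41 with TGFB1, where a count of 0 allows up to 3 reads, or 1.80 to 4.24 normalized reads in a library. With celastrol it was at 5.41 and 9.69, and with both agents at 6.60 and 9.81. CNTF was called higher with celastrol (0.59, limma adjusted p = 0.0322), a call lost without either control library (adjusted p = 0.0623 and 0.131), without celastrol replicate 2 (0.194) and in 4 other settings.

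Of the 3 other receptor subunits tested, IL6R, which binds IL6, fell with TGFB1 from a mean of 157 to 89.2 normalized reads (log2 difference -0.82, limma adjusted p = 0.00374, but 0.116 from a fit to the 4 compared libraries alone). It rose to 656 with celastrol (2.06, limma adjusted p = 7.43e-06) and to 576 with both agents (2.69 against TGFB1, adjusted p = 1.53e-06). IL27RA, the interleukin 27 receptor subunit, fell with celastrol without and with TGFB1 (-0.99 and -1.35). IL31RA was at 7.20 to 11.1 normalized reads without celastrol and at 25.9 to 50.6 with it, and passed the low-value filter only through the celastrol libraries. So IL6R was high in the libraries in which LIFR was high, while OSMR was highest with TGFB1 alone.

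Of 12 genes of JAK and STAT signalling, TGFB1 raised 4 and lowered 1, but with a common total, under which all genes also shift to more falls than rises, 0 rose and 5 fell. The background of all genes called was 23.5%. STAT3 went from 3425 ± 22.04 to 4420.5 ± 8.35 normalized reads (log2 difference 0.37, limma adjusted p = 0.00496), which was 0.14 (adjusted p = 0.147) with a common total. GAB1, an adaptor of gp130 signalling, fell from 1144 ± 19.6 to 446 ± 41.0 with TGFB1 (-1.36, limma adjusted p = 4.91e-05) and was at 1257 ± 88.8 with both agents (1.49 against TGFB1, adjusted p = 6.52e-06). When celastrol was added to TGFB1, 6 of the 12 fell and 1 rose (3 and 4 with a common total), against a background of 63.4%, with STAT5B, GRB2 and PTPN11 among the falls (-0.51, -0.41 and -0.40). STAT3 also fell (-0.27, limma adjusted p = 0.00696), a call lost with a common total (-0.11, adjusted p = 0.177). Celastrol alone changed 0 of the 12 by limma, where 55.1% of all genes were called. With a common total 2 of the 12 fell, and with median centring 5 did.

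Among 12 negative regulators other than SOCS3, TGFB1 raised 2 and lowered 1 (0 and 3 with a common total), where 23.5% of all genes were called. The fall was in SOCS2, an inhibitor of cytokine signalling related to SOCS3, from 995 ± 15.4 to 167 ± 56.1 normalized reads (-2.61, limma adjusted p = 3.93e-05). With both agents SOCS2 was at 865 ± 5.65 (2.41 against TGFB1, limma adjusted p = 1.25e-05). SOCS3 rose in both of these comparisons, which share the TGFB1 libraries. The 2 small rises, in PTPN1 and SOCS6 (0.25 and 0.19), each lost their call in 9 alternative settings, among them the common total, no variance trend and the fits without either control or either TGFB1 library. Celastrol alone raised 3 of the 12 and lowered 4, where 55.1% of all genes were called. Added to TGFB1, it raised 5 and lowered 3 (3 and 5 with median centring), against a background of 63.4%. PTPN1 and SOCS6 rose with celastrol alone (0.57 and 0.52, limma adjusted p = 0.000205 and 8.04e-05). PTPN2, a phosphatase that acts on JAK1 and STAT proteins, fell with celastrol alone (-0.86, limma adjusted p = 8.57e-05) and when celastrol was added to TGFB1 (-0.89, adjusted p = 5.13e-05). The phosphatase gene PTPN6 was at 0 to 6.60 normalized reads without celastrol and at 90.4 to 110.2 with it. It passed the low-value filter only through the celastrol libraries, in which the immune, endothelial and melanocyte marker sums were also higher.

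The receptor-shedding list holds 3 genes. RHBDF2, a partner of the sheddase ADAM17, rose with TGFB1 (0.76, limma adjusted p = 0.00202) and fell with celastrol alone (-0.63, adjusted p = 0.00175) and with celastrol added to TGFB1 (-1.48, adjusted p = 1.14e-05). ADAM17, which sheds IL6R among other substrates, rose with celastrol (0.81 alone, limma adjusted p = 2.24e-05, and 0.51 with TGFB1, adjusted p = 0.000221). Its TGFB1 rise of 0.28 lost its call with a common total (limma adjusted p = 0.637), without a variance trend (0.0930), without either control library (0.0958 and 0.0867) and without TGFB1 replicate 2 (0.0738).

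STAT3 target genes other than SOCS3 numbered 19 tested. TGFB1 raised 12 and lowered 1 (10 and 3 with a common total), with a median log2 difference of 0.68, where 23.5% of all genes were called. JUNB rose by 3.64 (limma adjusted p = 1.43e-07), NNMT by 1.73, VEGFA by 1.71 and HIF1A by 1.02. Most of these genes also answer to other pathways, so the list is not a readout of STAT3 alone. Celastrol alone raised 12 and lowered 3 (55.1% of all genes called), with FOS from 29.5 ± 9.53 to 3651 ± 221 normalized reads (6.94, limma adjusted p = 1.61e-07), JUNB by 3.46, VEGFA by 2.55 and PIM1 by 2.12. Added to TGFB1, celastrol was followed by 12 rises and 6 falls (8 and 7 with median centring; 63.4% of all genes called), the largest fall being in the chemokine gene CCL2, from 2092 ± 29.7 to 256 ± 5.70 (-3.03, limma adjusted p = 7.26e-07). CCND1 fell by 1.36. The interaction was negative for 10 of the 19 and positive for 0 (9 and 3 with a common total), where 11.3% of all genes were called.

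**Figure D4:**
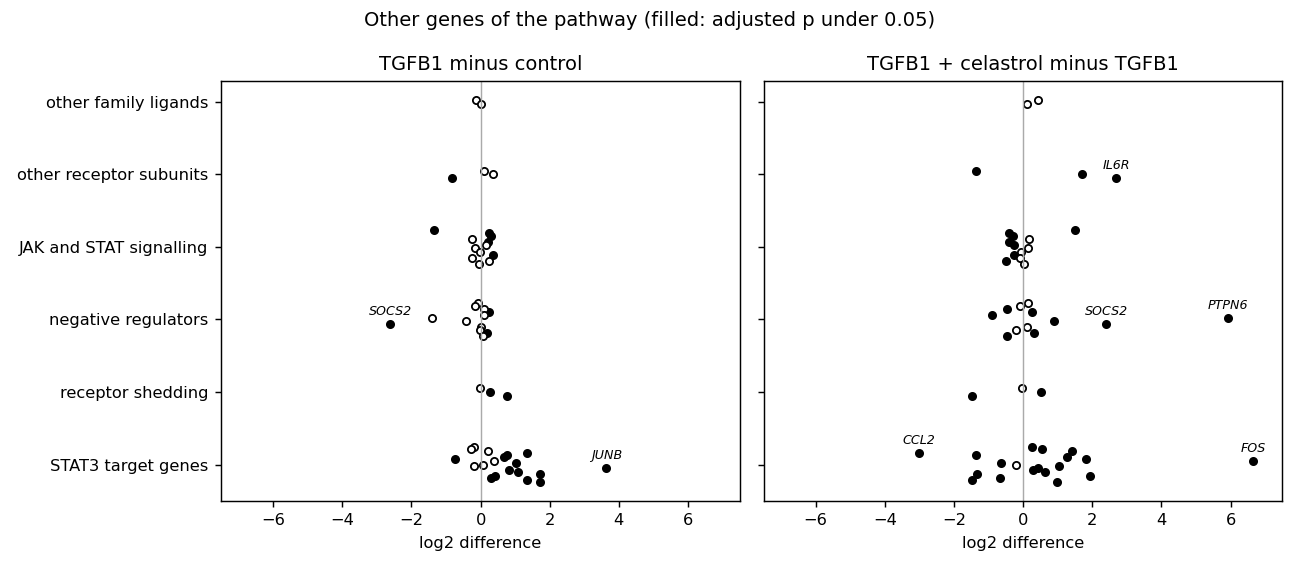
Log2 differences of the other pathway genes by list (points; filled where the adjusted p is under 0.05) for TGFB1 against control and for both agents against TGFB1. JUNB (3.64) lies far right with TGFB1 and SOCS2 (-2.61) far left, and with celastrol added CCL2 (-3.03) lies left and FOS (6.65) and PTPN6 right.

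Genes with the most similar levels over the 8 libraries were found among 12298 genes whose mean was 50 normalized reads or more, by the root mean square distance of log2 levels after centring. Closest to IL11 were PMEPA1 (distance 0.13), LIF (0.39) and TSPAN2 (0.41), and closest to LIF were IL11 (0.39), PMEPA1 (0.47) and COMP (0.53). COMP passed the limit of 50 only through the TGFB1 group, at 726 beside 12.1 in control, 33.8 with celastrol and 43.9 with both agents. PMEPA1, a TGFB1-induced gene, had group means of 229.5 in control, 4381 with TGFB1, 439 with celastrol and 676 with both agents. For IL6 the closest were TSHZ3 (0.11), HEYL (0.14) and RGS4 (0.15). HEYL was low, at 26.9 in control, 113 with TGFB1, 57.4 with celastrol and 49.7 with both agents. For SOCS3 they were TIPARP (0.11), UBL3 (0.11) and RGPD5 (0.12), all ordered control, TGFB1, celastrol, both on their means. The points are 8 libraries of 4 groups that share treatments and size factors, so these distances are descriptions. The neighbours were chosen for their likeness, so a peak shared with them follows from that choice.

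**Figure D5:**
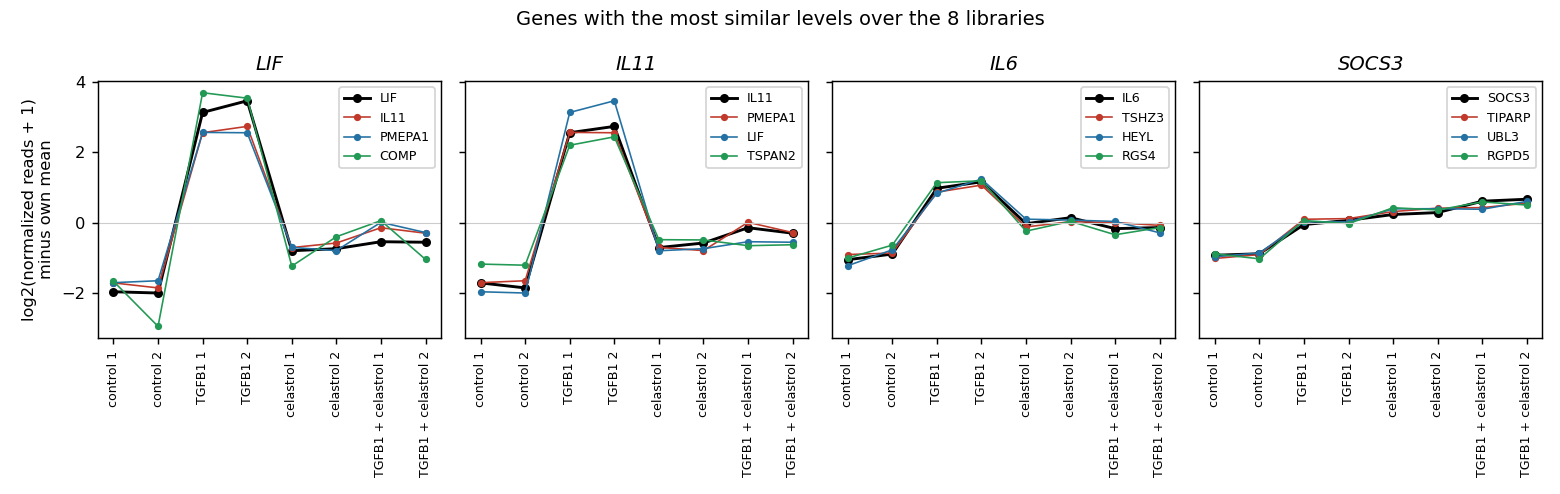
Log2(normalized reads + 1) minus the gene's own mean over the 8 libraries for LIF, IL11, IL6 and SOCS3 (black) and the 3 genes nearest to each (colours). The first 3 genes and their neighbours peak in the 2 TGFB1 libraries, and SOCS3 and its neighbours are highest with both agents.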

How the data were processed

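Libraries were prepared from total RNA, extracted with TRIzol, with a VAHTS kit, per the labels' protocols. The authors deposited 1 normalized signal value per gene and library. The submitters' processing notes name Partek 10.0.22, STAR 2.7.3a, DESeq2 and build hg38, without roles; the annotation, counting rule, strand use and any low-count filter are likewise not given. The median ratio to genes' geometric means was 1.01 in every library, and 73.7% to 75.8% of nonzero values under 500 reads fell on whole multiples, to within 0.02 reads, of 1 step, so the deposited signal was taken to be estimated reads over 1 size factor per library. That step gives the 20716713 to 42518362 estimated reads per library and a limit of 3 reads (1.80 to 4.24 normalized reads) for a value of 0, which covers counting error only. Because many such values stayed fractional, no count test was run.

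Replicates are numbered as in the titles, though another label numbers celastrol replicate 2 as 3. Values were analysed as log2(value + 1). The 22866 genes that reached 10 normalized reads in 2 or more libraries were tested by limma 3.58.1 (R 4.3.3) using a mean-variance trend and 4 residual degrees of freedom, two-sided. Adjustment (Benjamini-Hochberg) was over all genes within each of 5 comparisons, including the interaction. The code of the fit was checked on simulated normal log2 values with 200 changed genes. Only the TGFB1 group was shifted there, so the check does not cover wide shifts like those with celastrol. Alternatives were the pseudocount, the filter, a common total, median centring, no variance trend, a replicate block, only the compared libraries and leaving out each library. Coordinates are as deposited, overlaps come from GENCODE release 29, and sequences from RefSeq (GRCh38.p14).

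The 9 genes and the lists were chosen with earlier results of these data known. A gene of the ligand list is not reported here and is left out of its counts. Of each pathway list, up to 4 called genes per comparison with the smallest p could be named, and any gene needed to say what was at 0. STAT3 in the celastrol comparisons was named after its values were seen. The genes nearest in level were the 3 with the smallest distance, leaving out names of clones, LINC, LOC, antisense and small RNAs and pseudogenes.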

Additional observations from a re-analysis of the deposited data

Results flagged for a closer look

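The interaction, that is, the celastrol difference with TGFB1 minus that without it, was called for 6 of the 9 genes. Among all genes tested 11.3% were called. For these 6 the log2 difference for celastrol differed between cells with and without TGFB1. The interaction was -5.07 for LIF, -4.02 for IL11, -2.26 for IL6, -1.77 for CLCF1, -0.53 for SOCS3 and -0.42 for OSMR. The calls for SOCS3 and OSMR were lost with a common total and without a variance trend. Among the other named pathway genes the interaction was -3.02 for JUNB, -1.80 for NNMT, -1.56 for VEGFA, -1.03 for HIF1A, -0.85 for RHBDF2 and -0.41 for STAT3. It was positive for SOCS2 (2.62) and GAB1 (1.41). The call for STAT3 was lost in 8 alternative settings, and that for RHBDF2 without either library with both agents (limma adjusted p = 0.0544 and 0.0502).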

How the results depend on the processing

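The 9 genes gave 45 differences, recomputed under 17 alternative settings; 36 kept their call, or lack of one, in each setting run, among them all of IL6, IL11, LIF and CLCF1. The number of the 9 genes called per comparison moved by at most 1.5 times, the interaction without a variance trend (4 beside 6) moving most. Call changes not given above were a fall of IL6ST with celastrol added to TGFB1 under median centring (-0.29, limma adjusted p = 0.0205), a positive interaction of LIFR with a common total (0.40, adjusted p = 0.0129), and a fall of IL11RA with celastrol with a common total (-0.48, adjusted p = 0.0299), median centring (-0.57, adjusted p = 0.0126) or only the compared libraries (adjusted p = 0.0184).

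In 24 cases a difference of the 9 genes changed sign, and 23 of these were called in neither fit; OSMR with celastrol under median centring (-0.16) is the exception. With a common total, celastrol added to TGFB1 gave 0.15 for IL6ST and 0.078 for IL11RA, celastrol alone gave -0.0059 for IL6ST and -0.073 for OSMR, TGFB1 with celastrol gave 0.0018 for IL11RA, and the IL6ST interaction was 0.16. Of the other pathway genes, SOCS6, called higher for TGFB1 in the reported fit, was -0.032 with a common total. STAT3, not called for celastrol alone, was -0.030 in that comparison with median centring. With median centring, IL6ST was 0.078 for TGFB1 and -0.097 for celastrol, and CLCF1 was -0.19 for celastrol added to TGFB1. Leaving out 1 library at a time, IL6ST ranged from -0.15 to 0.070 for TGFB1, from -0.12 to 0.11 for celastrol added to TGFB1 and from -0.19 to 0.033 for the interaction. In the same way, celastrol added to TGFB1 gave -0.32 to 0.16 for IL11RA and -0.080 to 0.28 for CLCF1, celastrol alone gave -0.0015 to 0.016 for OSMR, and TGFB1 with celastrol gave -0.12 to 0.095 for IL11RA, -0.011 to 0.077 for LIFR and -0.14 to 0.010 for CLCF1. The cause of these changes was not tested. In these fits the lone library of a group is assumed to vary like the other groups.

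With a common total the median of all genes was -0.21 for TGFB1, 0.28 for celastrol added to TGFB1 and 0.22 for the interaction, and with median centring 0.12, -0.17 and -0.11. Same-numbered libraries deviated together only weakly (correlations 0.050 to 0.082), so the numbers were not taken as pairs. With a replicate block the fall of IL11RA with celastrol was called (-0.40, adjusted p = 0.0199), and no other call of the 9 genes changed. All genes called for TGFB1 against control numbered 5364, with 1684 from only the compared libraries, 3311 without control replicate 1 and 3248 without control replicate 2. For the interaction they numbered 2573, with 1245 without a variance trend and 1189 to 2715 when 1 library was left out. For TGFB1 with celastrol they numbered 2, and 0 or 1 in every alternative but the common total.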
